A study of Rattus norvegicus with 18 samples.

Results

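The comparison described here is the difference between 2 doses of inhaled cigarette smoke in whole rat lung, 2 hours after the last exposure. Its members are the 6 of 18 samples whose titles carry the 2 hour mark, with each dose sampled at 2, 7 and 13 weeks of exposure. Rats breathed diluted smoke through the nose only, at 300 µg (low dose) or 600 µg (high dose) total particulate matter per litre, and control rats received conditioned fresh air in the same way. RNA from 4 lungs was pooled for each group and read on 2-colour arrays, so a value is the log2 ratio of a smoke pool over an air pool. Within a week both doses were set against 1 air pool, which cancels when the low-dose ratio is subtracted from the high-dose ratio. That leaves 3 differences per gene, 1 for each duration, and these were tested against 0. No condition was repeated, so the weeks stand in for replicates, and the spread holds error between pools together with any real change over weeks. The sources used here do not give the strain, sex or age of the rats. Pooling hides the spread between animals, and a ratio carries no level, so the labelled tissue could not be checked by marker abundance. The lung markers Sftpc and Scgb1a1 were not analysed here, whereas Sftpa1, Sftpd, Napsa, Ager and Aqp5 had values.

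Polycyclic hydrocarbons in smoke bind the aryl hydrocarbon receptor (AhR), which switches on enzymes such as Cyp1a1 through xenobiotic response elements. Electrophiles and oxidants free the transcription factor NRF2, which drives quinone reductase, haem oxygenase and glutathione synthesis. Irritated epithelium and macrophages activate NF-kappaB, secrete acute phase proteins and chemokines, and draw leukocytes into the airspace. Immediate early genes answer such signals within minutes, and many of their transcripts are short-lived.

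Most genes had a small mean difference between the doses, and none passed the threshold. Of 3645 genes with a value in all 3 pairs, 0 (0%) passed limma at an adjusted p under 0.05, and the smallest adjusted p was 0.135, for Ramp3. At an unadjusted p under 0.05 limma counted 237 genes (6.5%), 144 higher (3.95%) and 93 lower (2.55%) at the high dose. The exact sign-flip permutation test over 3 differences cannot go below a two-sided p of 0.25 and so calls no gene. The mean difference lay within 0.25 of 0 on the log2 scale for 3254 genes (89.3%). A difference of at least 1.5-fold was reached by 8 genes upwards (0.219%) and 5 downwards (0.137%). The median gene had an SD of 0.194 over the pairs, and the median 95% interval ran 0.282 to either side of the mean. A mean within 0.25 of 0 thus does not show that a gene was equal at both doses. In what follows genes are therefore described as standing higher or lower at the high dose, and none is called changed between the doses. Values after ± are standard errors (SE) of the mean difference from limma, with n = 3 pairs. Where the samples are not given one by one, the word pairs in brackets precedes the differences at 2, 7 and 13 weeks. Leaving out 1 week moved the mean by over 1.5 times, or turned its sign, for 73 of the 131 genes named or tabulated (55.7%).

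The weeks gave little common order to the differences across genes. The same sign in all 3 pairs was seen for 944 genes (25.9%), 480 higher (13.2%) and 464 lower (12.7%). Every list count below of members higher or lower in every pair is to be read against these shares. Over genes, which are not independent replicates, the differences correlated at 0.151 between 2 and 7 weeks, 0.0435 between 2 and 13 weeks and -0.0282 between 7 and 13 weeks. These weeks used separate air pools. The SD over genes was 0.243 at 2 weeks, 0.302 at 7 weeks and 0.28 at 13 weeks.

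**Figure D1:**
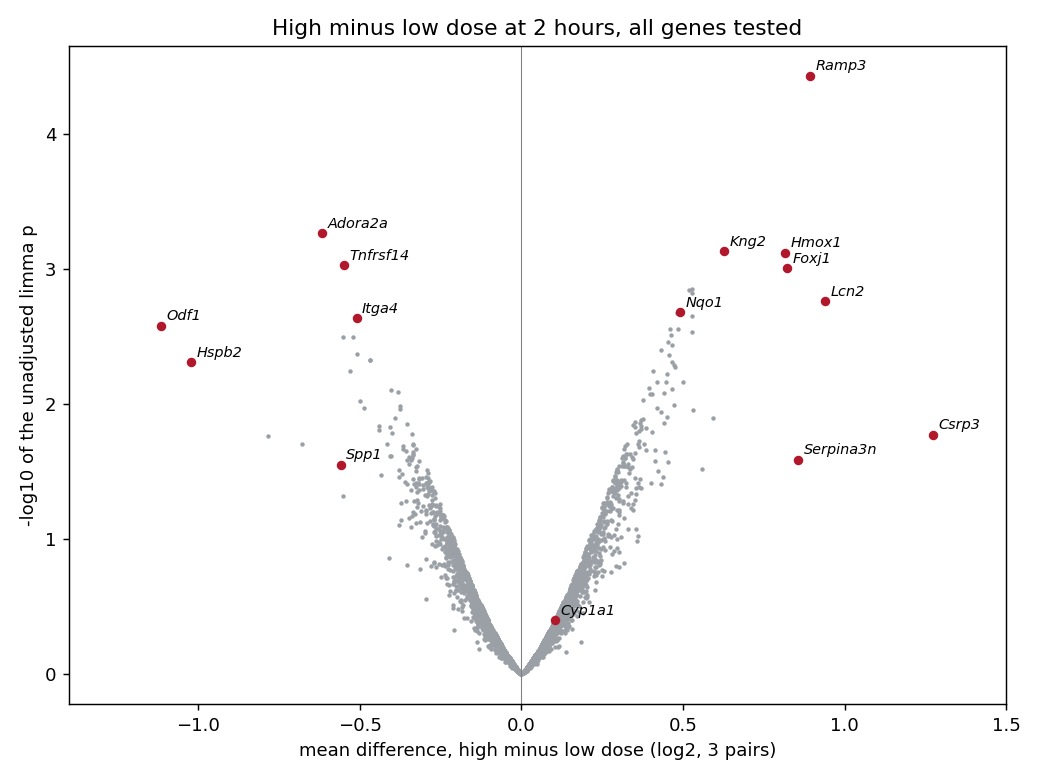
Each point is 1 of the 3645 genes tested, with the mean log2 difference between the doses at 2 hours on the x axis and -log10 of the unadjusted limma p on the y axis. Ramp3 stands at 0.89 with the smallest p (adjusted p = 0.135 by limma), and 89.3% of genes lie within 0.25 of 0.

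The steepest separation belonged to Ramp3, a small membrane protein that pairs with the calcitonin receptor-like receptor and makes it respond to adrenomedullin, a vessel-dilating peptide. Its log2 ratio over air was -0.23, -0.22 and -0.29 at the low dose after 2, 7 and 13 weeks. At the high dose it was 0.45, 0.68 and 0.81. All low-dose samples thus lay below air, all high-dose samples above it, and the doses did not overlap. Leading genes such as Ramp3 were picked for a large difference in every pair, so a lack of overlap is no separate support. The mean difference of Ramp3 was 0.89 ± 0.13, or 1.86-fold, with a 95% interval of 0.61 to 1.18 and an adjusted p of 0.135 by limma. Across the alternatives its difference ranged from 0.79 to 1.00 and its adjusted limma p from 0.0232 to 0.994. The only alternative in which it passed was the fit that takes its spread from the differences of all hours (adjusted p = 0.0232 by limma).

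Nfkbia, another of the leading higher genes, encodes IkappaB-alpha, the inhibitor that NF-kappaB induces against itself. It read -0.01, 0.12 and 0.10 at the low dose and 0.41, 0.56 and 0.62 at the high dose, a difference of 0.46 ± 0.12. The low dose was thus within 0.12 of air in all 3 weeks, and each high-dose sample stood above it by a like amount. Fkbp5, a chaperone of the glucocorticoid receptor that glucocorticoids induce, went from 0.50, 0.90 and 0.39 to 0.98, 1.31 and 0.80 (0.43 ± 0.12). It was above air at both doses. Frzb, a secreted Wnt antagonist, stood at 0.33, -0.18 and 0.19 at the low dose and 0.83, 0.34 and 0.61 at the high dose (0.48 ± 0.12). Plaur, the urokinase receptor, differed by 0.53 ± 0.14 (pairs 0.32, 0.83 and 0.43), the nucleotide receptor P2ry6 by 0.45 ± 0.12 (pairs 0.33, 0.53 and 0.50) and the secreted galectin-binding protein Lgals3bp by 0.46 ± 0.12 (pairs 0.35, 0.47 and 0.57). These were chosen after their values were seen and lie just outside the leading 15 higher genes.

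To show what lies before the start sites of genes that stood higher in every pair, RefSeq promoters (assembly GRCr8) of the leading 15 higher and 15 lower genes were searched on both strands for 6 motifs, over the 250 bases before the start. Sequences were at hand for 12 genes in each direction. A kappaB motif was found in 3 of the 12 higher genes, Ramp3, Lcn2 and Nfkbia, and in 0 of the 12 lower genes, against 6.33% of 33469 promoters. The 3 are printed 5′ to 3′ on the gene's strand with the match in capitals, followed by Nqo1 with the xenobiotic response element core, GCGTG, in capitals as its reverse complement. Ramp3 covers chr14:85741064-85741313 (+), Lcn2 chr3:36081781-36082030 (-), Nfkbia chr6:78597073-78597322 (-) and Nqo1 chr19:52220268-52220517 (-).
Ramp3: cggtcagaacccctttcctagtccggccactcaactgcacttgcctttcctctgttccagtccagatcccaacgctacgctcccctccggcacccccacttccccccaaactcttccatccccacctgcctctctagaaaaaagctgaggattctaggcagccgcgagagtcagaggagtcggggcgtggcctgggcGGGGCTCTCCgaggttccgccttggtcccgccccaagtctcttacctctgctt
Lcn2: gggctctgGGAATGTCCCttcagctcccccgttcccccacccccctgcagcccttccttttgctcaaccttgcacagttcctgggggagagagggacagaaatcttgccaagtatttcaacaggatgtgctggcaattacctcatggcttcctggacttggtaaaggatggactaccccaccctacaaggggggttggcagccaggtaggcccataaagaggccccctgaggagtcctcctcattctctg
Nfkbia: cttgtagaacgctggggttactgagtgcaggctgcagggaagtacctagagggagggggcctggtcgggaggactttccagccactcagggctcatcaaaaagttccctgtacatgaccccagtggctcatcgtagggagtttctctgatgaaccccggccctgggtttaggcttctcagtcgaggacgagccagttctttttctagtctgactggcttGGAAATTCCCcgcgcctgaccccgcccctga
Nqo1: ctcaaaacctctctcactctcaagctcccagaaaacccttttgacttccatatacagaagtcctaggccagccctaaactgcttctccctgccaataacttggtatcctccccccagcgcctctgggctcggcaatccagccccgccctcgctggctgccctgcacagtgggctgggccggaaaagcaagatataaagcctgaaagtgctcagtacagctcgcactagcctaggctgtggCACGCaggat

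The kappaB match begins 53 bases before the start in Ramp3, 242 in Lcn2 and 31 in Nfkbia. The GCGTG core was present in 4 of 12 higher and 5 of 12 lower genes, against 25.9% of all promoters. The antioxidant response element, searched as TGACNNNGC, was present in 2 of 12 higher genes (Hemgn and Nfkbia) and 0 of 12 lower genes, against 10.1%. TGANTCA (AP-1) and TGACGTCA (CRE) were found in 0 genes of either direction, against 6.34% and 1.59% of promoters. CCGGAAG (ETS) was found in 1 lower gene, Yes1, against 7.27%. A gene counts once if any of its promoters matched, whereas each share is over single RefSeq promoters and is not limited to the genes tested. A match describes these letters and does not show that a factor binds there.

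**Figure D2:**
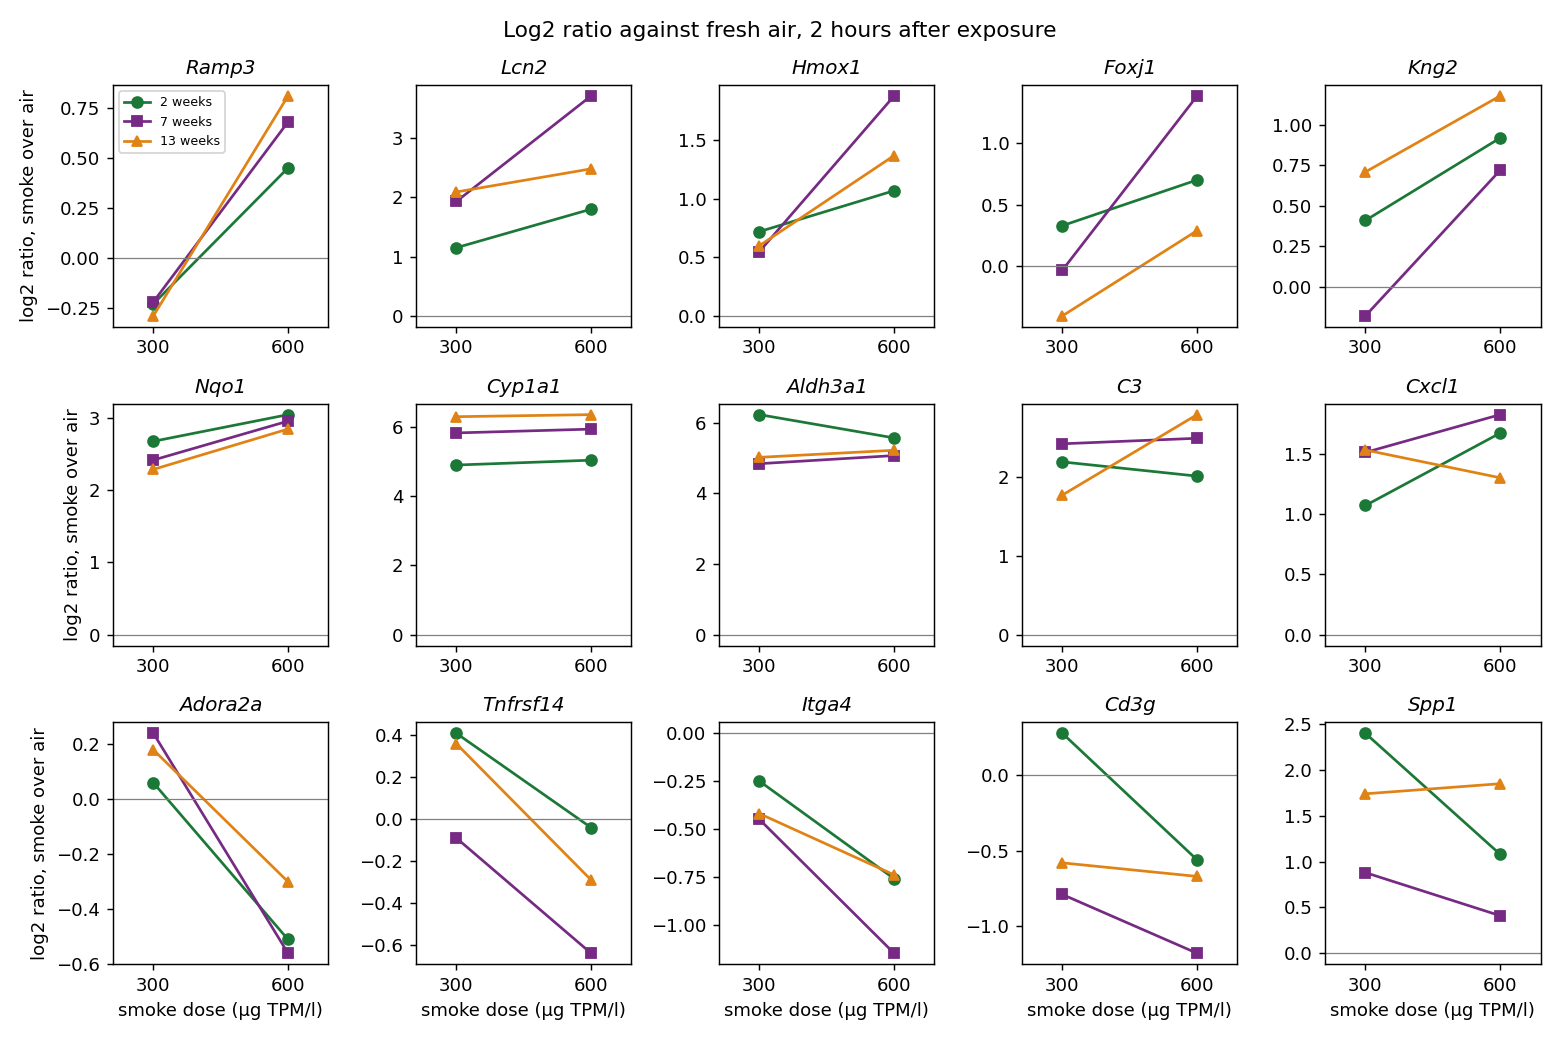
Each panel shows 1 gene, with the smoke dose (300 or 600 µg total particulate matter per litre) on the x axis and the log2 ratio over fresh air on the y axis, and a line joins the low-dose and high-dose sample that share an air pool at 2, 7 or 13 weeks. Ramp3 goes from below to above air in each week, whereas Cyp1a1 lies between 4.91 and 6.37 at both doses.

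The AhR targets Cyp1a1 and Aldh3a1 stood far above air at both doses. Cyp1a1, the cytochrome P450 that oxidises polycyclic hydrocarbons, read 4.91, 5.84 and 6.31 at the low dose and 5.05, 5.95 and 6.37 at the high dose. The means were 51.5-fold and 55.3-fold over air, and the difference of 0.10 ± 0.12 had a 95% interval of -0.16 to 0.36, that is 0.897-fold to 1.28-fold. A 1.5-fold difference lies outside that interval. Aldh3a1, an aldehyde dehydrogenase of the same receptor's targets, went from 6.23, 4.84 and 5.02 to 5.57, 5.07 and 5.22. It was lower at the high dose at 2 weeks and higher in the other weeks, with a mean of -0.08 ± 0.17 and an interval of -0.46 to 0.31. The glucuronosyltransferase Ugt1a6 differed by 0.23 ± 0.12 (pairs 0.26, 0.33 and 0.10) and the P450 Cyp1b1 by 0.17 ± 0.12 (pairs 0.18, 0.14 and 0.18).

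Nqo1, the quinone reductase shared by the AhR and NRF2 programmes, stood at 2.68, 2.42 and 2.29 at the low dose and 3.05, 2.96 and 2.85 at the high dose. The doses did not overlap, and the mean of 0.49 ± 0.12 (1.40-fold) turned to -0.05 when the 6 columns were quantile-normalised. Under the same scaling the difference of Cyp1a1 became -0.0068 and that of Aldh3a1 0.0368. Quantile normalisation gives values of equal rank the same size in every column, and these 3 genes read at least 2.29 in each. Col1a1, at -1.32 to 0.04 over air, also turned, from -0.17 to 0.15. The part of rank in these turns was not tested. The direction of these dose differences thus depends on the scaling used. Of 5 AhR genes tested, 0 passed limma, 4 were higher in every pair (13.2% of all genes) and 0 lower in every pair (12.7%). Their median difference was 0.17 against 0.0033 for all genes, and became 0.0368 under quantile normalisation.

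Haem oxygenase had the largest mean difference among the oxidative defence genes. Hmox1, which degrades haem and is a textbook NRF2 target, read 0.72, 0.55 and 0.60 at the low dose and 1.07, 1.88 and 1.37 at the high dose. The low-dose samples lay close together and all high-dose samples above them, a difference of 0.82 ± 0.17 (1.76-fold). Ggt1, which breaks down extracellular glutathione for reuse, went from 0.88, 0.74 and 0.88 to 1.29, 1.26 and 1.51 (0.52 ± 0.12). Sod2, the mitochondrial superoxide dismutase, went from 0.38, 0.54 and 1.31 to 0.85, 1.23 and 1.55 (0.47 ± 0.13). Ggt1 separated the doses fully, whereas the Sod2 ranges overlapped because its low-dose ratio was higher at 13 weeks. The metallothionein Mt1 differed by 0.37 ± 0.12 (pairs 0.19, 0.49 and 0.42) and Gclc, the catalytic subunit of glutathione synthesis, by 0.32 ± 0.13 (pairs 0.16, 0.20 and 0.59). Glutathione reductase Gsr (0.40 ± 0.17, pairs -0.14, 0.74 and 0.60), thioredoxin reductase Txnrd1 (0.37 ± 0.15, pairs -0.02, 0.73 and 0.39) and the peroxiredoxin Prdx1 (0.36 ± 0.15, pairs 0.37, 0.73 and -0.02) were each higher in 2 of 3 pairs.

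Of 22 NRF2 and oxidative stress genes, 0 passed limma, 8 were higher in every pair (13.2% of all genes), 3 lower in every pair (12.7%), and the median was 0.15. By week the median was 0.005 at 2 weeks, 0.44 at 7 weeks and 0.145 at 13 weeks. Extracellular Sod3 (-0.26 ± 0.14, pairs -0.58, -0.01 and -0.18) and Prdx2 (-0.22 ± 0.13, pairs -0.16, -0.04 and -0.47) were among those lower. An unadjusted limma p under 0.05 was reached by 9 genes, all higher, against 3.95% higher among all genes. Of 12 glutathione S-transferases 3 were higher and 0 lower in every pair, with a median of 0.07. Gstp1 stood at 0.64, 0.72 and 0.70 at the low dose and 0.96, 1.06 and 0.99 at the high dose (0.32 ± 0.12), without overlap, and the microsomal Mgst1 differed by 0.22 ± 0.14 (pairs 0.09, 0.54 and 0.02). The 16 other xenobiotic enzymes had a median of -0.0083, with 3 higher and 4 lower in every pair. The epoxygenase Cyp2j4 went from 0.60, -0.15 and 0.07 to 0.08, -0.42 and -0.27 (-0.38 ± 0.12), and the epoxide hydrolase Ephx2 differed by 0.45 ± 0.18 (pairs 0.95, -0.07 and 0.48), with 2 of 3 pairs higher.

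Acute phase and complement genes stood mostly higher at the high dose. Of 16 tested, 0 passed limma, 12 were higher at the high dose in every pair against 13.2% of all genes, 1 was lower in every pair, and the median was 0.30. The list was chosen with earlier results of these data known, so its count describes its members and is no independent support. Lcn2, which withholds iron from bacteria by binding siderophores, read 1.15, 1.93 and 2.09 at the low dose and 1.80, 3.71 and 2.48 at the high dose. Each pair was higher, by most at 7 weeks, and the mean was 0.94 ± 0.22 (1.92-fold). Kng2, a kininogen, went from 0.41, -0.18 and 0.71 to 0.92, 0.72 and 1.18 (0.63 ± 0.13). Haptoglobin Hp, which binds free haemoglobin, went from 0.38, 0.16 and 0.15 to 0.74, 0.82 and 0.58 (0.48 ± 0.12). Hp separated the doses without overlap, and Kng2 did so by the narrow gap between 0.71 and 0.72.

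The complement protease Cfi differed by 0.50 ± 0.15 (pairs 0.29, 0.91 and 0.30), the fetuin Fetub by 0.48 ± 0.13 (pairs 0.30, 0.78 and 0.35), the immunoglobulin transporter Pigr by 0.30 ± 0.12 (pairs 0.28, 0.43 and 0.19) and the C1q chain C1qb by 0.32 ± 0.12 (pairs 0.38, 0.42 and 0.17), each higher in all pairs. Serpina3n, a protease inhibitor, had a mean of 0.86 ± 0.33 that rested on the 13 week pair. It read 0.46, 0.87 and -0.97 at the low dose and 0.71, 0.96 and 1.26 at the high dose, and without 13 weeks its mean was 0.17. Complement C3 was 2.19, 2.42 and 1.77 at the low dose and 2.01, 2.49 and 2.79 at the high dose. Its mean of 0.30 ± 0.20 became -0.06 without the 13 week pair. The protease inhibitor A2m was the member lower in every pair, at -0.31 ± 0.13 (pairs -0.39, -0.44 and -0.09).

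**Figure D3:**
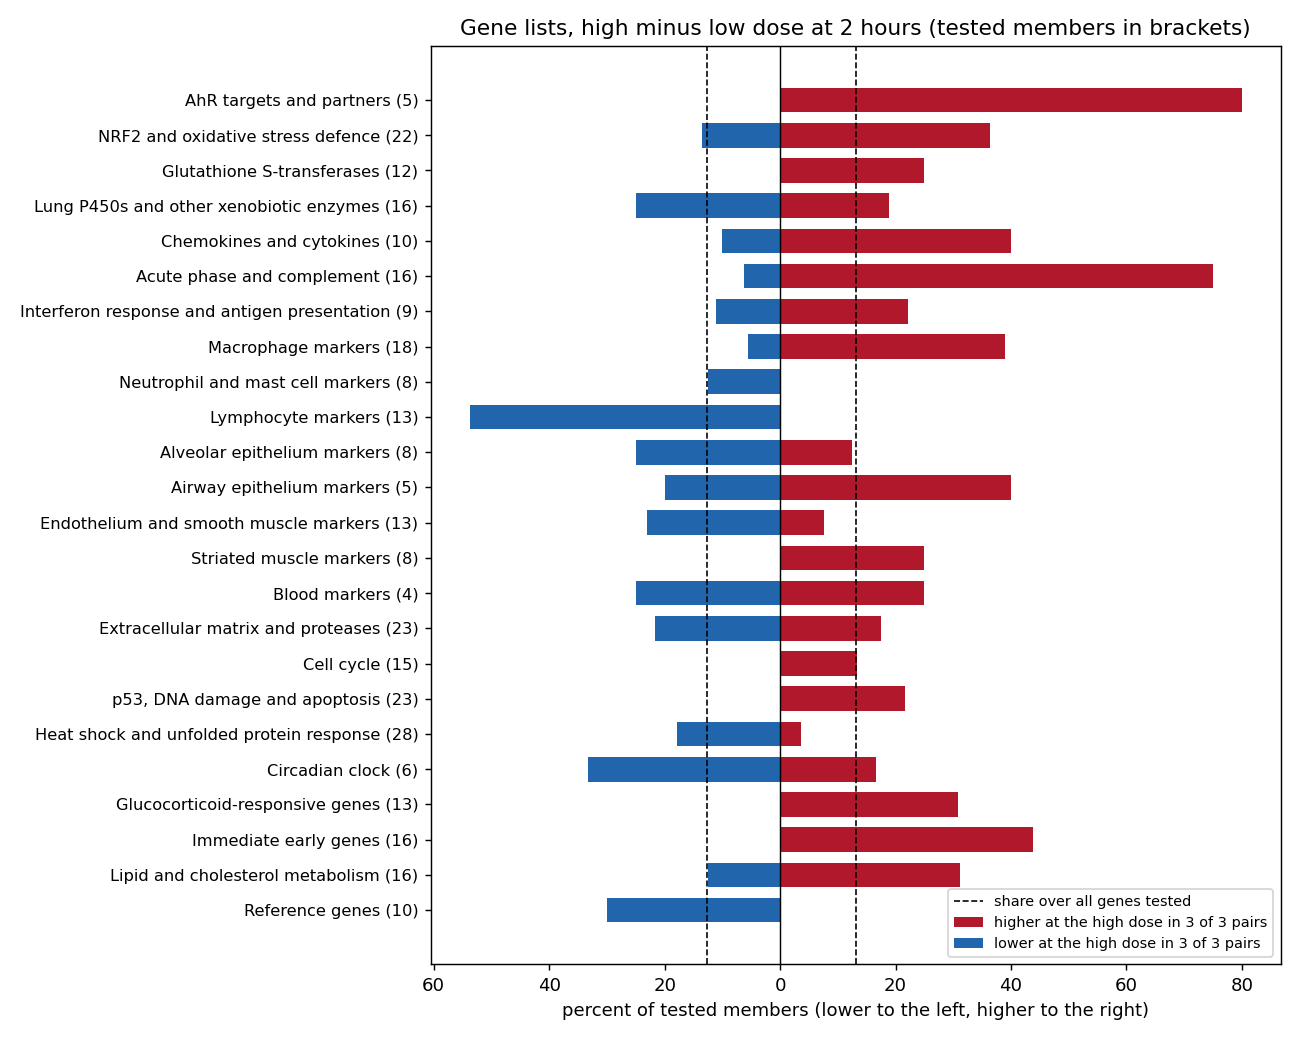
For each gene list on the y axis, with its number of tested members in brackets, red bars to the right give the percent of members higher at the high dose in all 3 pairs at 2 hours and blue bars to the left the percent lower in all 3 pairs, and dashed lines mark the shares over all genes tested (13.2% and 12.7%). Acute phase and complement genes (12 of 16) reach far to the right and lymphocyte markers (7 of 13) far to the left. The lists were chosen with earlier results of these data known.

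Of 10 chemokines and cytokines 0 passed limma, 4 were higher in every pair (13.2% of all genes) and 1 lower (12.7%). Their median of 0.16 was 0.0417 without 2 weeks and 0.305 without 13 weeks. Cxcl1, the neutrophil attractant, read 1.07, 1.51 and 1.53 at the low dose and 1.67, 1.82 and 1.3 at the high dose, so its pairs disagreed at 13 weeks (0.23 ± 0.16). The growth factor Csf2 went from -0.04, 0.63 and 0.71 to 1.05, 0.88 and 0.96 (0.53 ± 0.17), and the macrophage chemokine Ccl3 from 0.15, 1.41 and 0.49 to 1.03, 1.57 and 0.87 (0.47 ± 0.15). For both, the 2 week pair held the largest step. The monocyte chemokine Ccl2 differed by 0.26 ± 0.13 (pairs 0.07, 0.53 and 0.19), the decoy receptor Il1r2 by 0.35 ± 0.15 (pairs 0.41, 0.70 and -0.05), and Il1b by -0.05 ± 0.13 (pairs 0.05, -0.33 and 0.14) with pairs of either sign. Cxcl14, an epithelial chemokine, stood lower or level, at -0.34 ± 0.15 (pairs -0.31, 0.00 and -0.72). Cxcl2 was not analysed here.

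Of 18 macrophage markers, 0 passed limma, 7 were higher in every pair (13.2% of all genes) and 1 lower (12.7%), with a median of 0.14. The lysosomal protein Cd68 went from 0.58, 0.99 and 0.86 to 0.67, 1.65 and 1.25 (0.38 ± 0.14), and the galactose-binding Lgals3 from 0.62, 1.17 and 1.23 to 0.80, 1.76 and 1.45 (0.33 ± 0.13). The lysosomal proteases Ctsd and Ctss differed by 0.42 ± 0.12 (pairs 0.25, 0.43 and 0.58) and 0.38 ± 0.12 (pairs 0.43, 0.40 and 0.30), lysozyme Lyz2 by 0.30 ± 0.12 (pairs 0.22, 0.37 and 0.30) and the elastase Mmp12 by 0.28 ± 0.13 (pairs 0.10, 0.51 and 0.22). The 7 week pair was the largest for Cd68, Lgals3 and Mmp12. Adgre1, the F4/80 antigen of resident macrophages, was the marker lower in every pair, at -0.25 ± 0.13 (pairs -0.11, -0.55 and -0.08). Spp1, or osteopontin, went from 2.40, 0.88 and 1.74 to 1.08, 0.41 and 1.85 (-0.56 ± 0.22). Its high-dose ratio stood below that of the low dose at 2 and 7 weeks and 0.11 above it at 13 weeks.

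Of 13 lymphocyte markers, 0 passed limma, 0 were higher and 7 lower in every pair, against 12.7% of all genes, and the median was -0.19. Cd3g, a chain of the T cell receptor complex, read 0.28, -0.79 and -0.58 at the low dose and -0.56, -1.18 and -0.67 at the high dose (-0.44 ± 0.15). Klrd1, a receptor of natural killer cells, went from 0.23, -0.03 and -0.58 to -0.42, -0.84 and -0.62 (-0.50 ± 0.16). Their 13 week pairs were nearly level, and the ranges of the doses overlapped. The granule protein Prf1 differed by -0.38 ± 0.15 (pairs -0.23, -0.81 and -0.10), the surface protein Cd37 by -0.30 ± 0.16 (pairs -0.04, -0.78 and -0.08), Cd79b of the B cell receptor by -0.12 ± 0.12 (pairs -0.02, -0.22 and -0.13) and the granzyme Gzma by -0.14 ± 0.17 (pairs 0.30, -0.69 and -0.02). Without 7 weeks the mean was -0.165 for Prf1 and -0.06 for Cd37. In whole lung, fewer cells of a type and less RNA per cell cannot be told apart, for these markers and for all others named.

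Neutrophil and mast cell markers had a median of 0.02 over 8 genes, and 0 of them were higher in every pair, against 13.2% of all genes. S100a9, a calcium-binding protein of neutrophils, read -1.36, -0.23 and 1.54 for the low dose and -1.47, 0.82 and 1.68 for the high dose. Its partner S100a8 read -1.51, -0.92 and 0.30, then -1.89, -0.27 and 0.24. The chemokine receptor Cxcr2 differed by -0.06 ± 0.13 (pairs -0.22, 0.25 and -0.20), and the neutrophil products Fcnb and Retnlg by -0.42 ± 0.15 (pairs -0.365, -0.81 and -0.075) and -0.37 ± 0.17 (pairs 0.00, -0.92 and -0.20). Without 7 weeks these means were -0.22 and -0.098. Of 9 interferon and antigen presentation genes, 2 were higher and 1 lower in every pair, with a median of 0.02. Irf7, a regulator of interferon genes, went from -0.76, -0.74 and -0.81 to -0.42, -0.58 and 0.04 (0.45 ± 0.15), and the immunoproteasome subunit Psmb8 differed by 0.17 ± 0.12 (pairs 0.31, 0.10 and 0.11).

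Among the 15 leading lower genes the largest mean difference was that of Adora2a. Adora2a, the adenosine receptor that restrains inflammatory cells, read 0.06, 0.24 and 0.18 at the low dose and -0.51, -0.56 and -0.30 at the high dose. It lay above air in every low-dose sample and below air in every high-dose sample, with a difference of -0.62 ± 0.12 (0.652-fold). Tnfrsf14, a tumour necrosis factor family receptor of lymphocytes, went from 0.41, -0.09 and 0.36 to -0.04, -0.64 and -0.29 (-0.55 ± 0.12). Itga4, an integrin chain for leukocyte adhesion, went from -0.25, -0.45 and -0.42 to -0.76, -1.15 and -0.74 (-0.51 ± 0.13). Itga4 was below air at both doses without overlap, whereas the Tnfrsf14 ranges overlapped. The Fc receptor Fcgr1a (-0.40 ± 0.12, pairs -0.37, -0.28 and -0.56) and the leukocyte actin regulator Coro1a (-0.34 ± 0.12, pairs -0.30, -0.28 and -0.44) were also lower in every pair.

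The salt-inducible kinase Sik1 went from 0.24, 0.44 and 0.58 to -0.07, -0.38 and 0.15 (-0.52 ± 0.14), and the zinc finger protein Zbtb1 from -0.06, 0.43 and 0.26 to -0.36, -0.30 and -0.12 (-0.47 ± 0.13). The splicing factor Hnrnpm differed by -0.38 ± 0.12 (pairs -0.38, -0.41 and -0.36), the Src family kinase Yes1 by -0.38 ± 0.12 (pairs -0.50, -0.33 and -0.30), the nuclear pore protein Tpr by -0.29 ± 0.12 (pairs -0.31, -0.24 and -0.32) and the magnesium transporter Nipa2 by -0.29 ± 0.12 (pairs -0.25, -0.30 and -0.33). The remaining leading lower genes were the muscle enolase Eno3 (-0.51 ± 0.14, pairs -0.33, -0.85 and -0.35), the organic cation transporter Slc22a2 (-0.35 ± 0.12, pairs -0.41, -0.41 and -0.24) and the neuropeptide gene Adcyap1 (-0.34 ± 0.12, pairs -0.50, -0.27 and -0.24). On the higher side the leading 15 were completed by Hemgn (0.53 ± 0.12, pairs 0.52, 0.66 and 0.40), a nuclear protein of blood-forming cells, the membrane protein Ms4a4c (0.53 ± 0.12), the acetyltransferase scaffold Trrap (0.53 ± 0.13, pairs 0.43, 0.78 and 0.37) and Dpm2 (0.41 ± 0.12), a subunit of mannosyl donor synthesis. For Dpm2 the low dose was the one away from air, at -0.43, -0.30 and -0.30, and the high dose lay within 0.12 of air. Ms4a4c read -0.56, -0.81 and -0.49, then 0.11, -0.43 and 0.04.

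Among epithelial genes the widest step was that of Foxj1, the transcription factor that directs formation of motile cilia. It read 0.33, -0.03 and -0.40 at the low dose and 0.70, 1.38 and 0.29 at the high dose, higher in each pair by 0.82 ± 0.18 (1.77-fold). The low-dose range reached 0.33 and the high-dose range began at 0.29, so the groups overlapped although the pairs did not disagree. The other 4 airway markers were Muc1, Krt5, Krt19 and Tp63, and the list had a median of -0.0183 with 2 members higher and 1 lower in every pair. Tp63, of basal cells, differed by 0.24 ± 0.13 (pairs 0.15, 0.11 and 0.46). Of 8 alveolar markers 1 was higher (13.2% of all genes) and 2 lower (12.7%) in every pair, with a median of -0.05. The surfactant protein Sftpa1 went from 0.14, 0.60 and 0.45 to 0.33, 0.94 and 0.71 (0.26 ± 0.12), and the water channel Aqp5 from -0.04, -0.30 and -0.32 to -0.27, -0.64 and -0.56 (-0.27 ± 0.12).

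Vessel, matrix and growth lists had medians near 0. Over all genes 13.2% were higher and 12.7% lower in every pair. Of 13 endothelial and smooth muscle markers 1 was higher and 3 lower in every pair (median -0.0167), with VE-cadherin Cdh5 at -0.34 ± 0.13 (pairs -0.13, -0.42 and -0.46) and endoglin Eng at -0.20 ± 0.13 (pairs -0.39, 0.05 and -0.27). Of 23 matrix and protease genes 4 were higher and 5 lower in every pair (median 0.0033). The collagen Col3a1 differed by -0.32 ± 0.13 (pairs -0.50, -0.11 and -0.36). Col1a1 stood at -0.17 ± 0.13 (pairs -0.24, -0.38 and 0.10), which became 0.15 under quantile normalisation, and the matrix protein Spon2 at -0.23 ± 0.14 (pairs 0.05, -0.13 and -0.60). Of 15 cell cycle genes 2 were higher and 0 lower in every pair (median 0.03), with the replication helicase subunit Mcm3 and the thymidylate synthase Tyms both at 0.35, each higher in 2 of 3 pairs (pairs -0.02, 0.30 and 0.78 for Mcm3 and 0.83, 0.49 and -0.26 for Tyms). Of 23 p53 and apoptosis genes 5 were higher and 0 lower in every pair (median 0.0033), with the p53 antagonist Mdm2 at 0.31 ± 0.12 (pairs 0.19, 0.46 and 0.29) and the survival factor Bcl2 at -0.37 ± 0.19 (pairs -0.16, -1.01 and 0.05). Without 7 weeks the Bcl2 mean was -0.055.

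Of 16 immediate early genes, 0 passed limma, 7 were higher in every pair (13.2% of all genes) and 0 lower (12.7%), with a median of 0.09. Among the 7 were the stress factor Atf3 (0.43 ± 0.18, pairs 1.06, 0.03 and 0.21), Junb (0.29 ± 0.13, pairs 0.24, 0.51 and 0.12), Egr3 (0.25 ± 0.12, pairs 0.37, 0.14 and 0.24) and the prostaglandin synthase Ptgs2 (0.19 ± 0.12, pairs 0.24, 0.11 and 0.23). Without 2 weeks the Atf3 mean was 0.12. Klf6 counted among the 7 with a difference of 0.05, and Fos stood at -0.02 ± 0.13 (pairs 0.15, -0.26 and 0.04). Of 13 glucocorticoid-responsive genes 4 were higher and 0 lower in every pair (median 0.12), with Lcn2 and Fkbp5 in front. Egr1 had values in 2 pairs and was not tested. Of 28 heat shock and unfolded protein genes 1 was higher and 5 lower in every pair (median 0.0083). The chaperone Hspa1a went from 0.74, 0.83 and 0.95 to 0.57, 0.71 and 0.16 (-0.36 ± 0.15), Hsp90aa1 differed by -0.32 ± 0.13 (pairs -0.04, -0.36 and -0.56), and the co-chaperone Bag3 by 0.36 ± 0.16 (pairs 0.72, 0.44 and -0.07).

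Of 6 clock genes 1 was higher (13.2% of all genes) and 2 lower (12.7%) in every pair (median -0.08). Tef differed by 0.39 ± 0.13 (pairs 0.15, 0.64 and 0.37), the repressor Nr1d1 by -0.20 ± 0.12 (pairs -0.07, -0.36 and -0.17) and Dbp by 0.16 ± 0.16 (pairs -0.30, 0.54 and 0.24), and Per1 and Per2 were not analysed here. Bmal1, the clock activator, read -1.47, -0.92 and -1.0 at the low dose and -0.60, -1.12 and -2.06 at the high dose, so its pairs ran in opposite directions. Of 16 lipid genes 5 were higher and 2 lower in every pair (median 0.10), with the lipoprotein Apoe at 0.29 ± 0.12 (pairs 0.31, 0.20 and 0.36) and the cholesterol exporter Abca1 at -0.28 ± 0.13 (pairs -0.27, -0.51 and -0.06). The 10 reference genes had a median of -0.0008, with 0 higher and 3 lower in every pair. Eef1a1 stood at -0.49 ± 0.16 (pairs -0.44, -0.11 and -0.91) and Sdha at -0.25 ± 0.14 (pairs -0.11, -0.06 and -0.58), and Gapdh, the glycolytic enzyme, at 0.11 ± 0.12 (pairs -0.01, 0.14 and 0.20).

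Genes with pairs of opposite sign show how far a week could move a value. The transporter Abcc5 differed by 1.42 at 2 weeks and by -0.87 at 13 weeks, and the calcium-binding Scgn by 1.40 at 7 weeks and by -0.86 at 13 weeks. The growth factor Hgf differed by 0.89 at 7 weeks and by -1.06 at 13 weeks. The largest mean of all, that of the muscle protein Csrp3, rested on 1 low-dose sample. Csrp3 read 0.82, -2.94 and -0.71 at the low dose and 1.02, 0.26 and -0.29 at the high dose (1.27 ± 0.45), and without 7 weeks its mean was 0.31. The 8 striated muscle markers had a median of 0.05, with 2 higher (13.2% of all genes) and 0 lower (12.7%) in every pair. The heart peptide Nppa read 0.76, -0.01 and 0.18, then 2.16, 0.01 and 0.44, and the cardiac actin Actc1 0.45, -1.0 and -0.69, then 0.24, -0.38 and -0.49. Of 4 blood markers 1 was higher and 1 lower in every pair, the platelet genes Pf4 (0.28 ± 0.12, pairs 0.11, 0.30 and 0.44) and Gp9 (-0.30 ± 0.13, pairs -0.17, -0.17 and -0.57). The part of muscle or blood RNA in these values was not tested. Slco1a5, an organic anion transporter, was also past 1.5-fold, at 0.59 ± 0.20 (pairs 0.44, 0.07 and 1.27), with most of it from the 13 week pair.

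The remaining genes past 1.5-fold on the lower side shared 1 profile. The sperm tail protein Odf1 read 0.59, 1.94 and -0.79 at the low dose and -1.0, 0.15 and -0.76 at the high dose (-1.12 ± 0.28). The small heat shock protein Hspb2 read 0.60, 1.67 and -0.69, then -0.74, -0.17 and -0.58 (-1.02 ± 0.29). The mitochondrial death factor Bnip3 differed by -0.78 ± 0.27 (pairs -1.25, -1.43 and 0.33) and the molybdenum cofactor enzyme Mocs3 by -0.68 ± 0.25 (pairs -0.94, -1.36 and 0.26). All 4 stood lower at the high dose at 2 and 7 weeks and between 0.03 and 0.33 higher at 13 weeks. With all 3 pairs none of the 4 passed limma (adjusted p = 0.549 for Odf1, 0.591 for Hspb2, 0.74 for Bnip3 and 0.74 for Mocs3). Without the 13 week pair, Odf1 (-1.69, adjusted p = 0.0321), Hspb2 (-1.59, adjusted p = 0.0471) and Bnip3 (-1.34, adjusted p = 0.0471) passed limma. That setting leaves out the only pair of opposite sign, so passing in it is no separate support. The 4 lie within 88 rows of each other in the deposited table. Of 65 tested genes in that stretch these 4 alone were at or below a 1.5-fold difference downwards, and the stretch had a median of 0.0233. The part of array position in their values was not tested. They were chosen after their values were seen, apart from Hspb2.

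**Figure D4:**
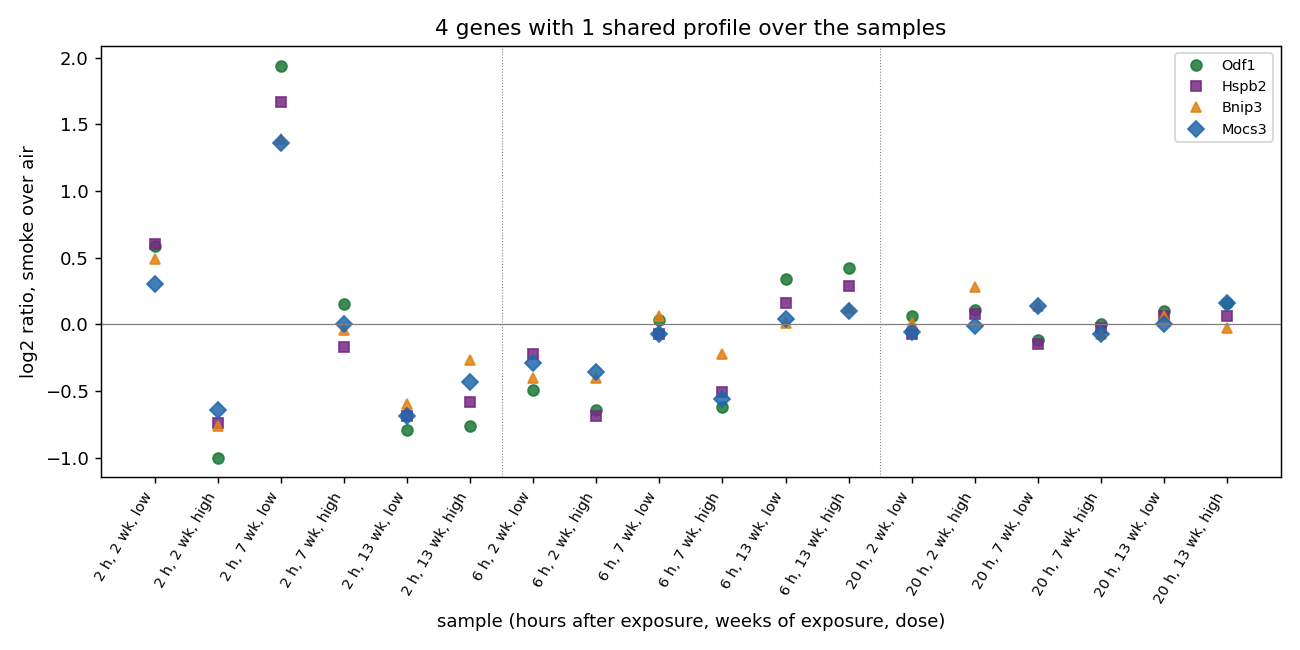
The log2 ratio over fresh air of Odf1, Hspb2, Bnip3 and Mocs3 is plotted on the y axis for each of the 18 samples on the x axis, ordered by hours, weeks and dose. The 4 genes lie close together in most samples, with their highest values at the low dose after 7 weeks and 2 hours, where Odf1 stands at 1.94.

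Whether a difference belonged to the 2 hour interval was tested against the mean of the intervals of 6 and 20 hours, in 1 limma fit over all 9 differences. Of 3641 genes 0 (0%) passed, and 176 (4.83%) had an unadjusted p under 0.05. Ramp3 came nearest, with differences between the doses of -0.06 at 6 hours and -0.15 at 20 hours and a contrast of 1.00 ± 0.17 (adjusted p = 0.0662 by limma). It passed only with weeks as a covariate (adjusted p = 0.0447 by limma), and over all alternatives its adjusted limma p ran from 0.0447 to 0.996. Irf7 followed with a contrast of 0.99 ± 0.21 (adjusted p = 0.453 by limma). Hemgn and Ms4a4c had contrasts of 0.68 ± 0.16 and 0.64 ± 0.15 (both adjusted p = 0.608 by limma).

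Several leading genes had a smaller mean difference at the other intervals, but none passed this contrast. Leading genes, Ramp3 among them, were picked for a large difference at 2 hours, and the same values enter the contrast. A smaller difference at 6 or 20 hours is therefore no separate support for a difference particular to 2 hours. Hmox1 differed by 0.82 at 2 hours, 0.07 at 6 and 0.21 at 20 hours, with a contrast of 0.68 ± 0.24. Foxj1 differed by 0.82, -0.02 and 0.19 (contrast 0.74 ± 0.25) and Nfkbia by 0.46, -0.17 and -0.04 (0.57 ± 0.18). Nqo1 differed by 0.49, 0.15 and 0.17 (0.33 ± 0.15), and Adora2a by -0.62, -0.03 and 0.24 (-0.72 ± 0.22). Acute phase members ran in several ways, and the list was not tested over hours. Lcn2 differed by 0.94, 1.05 and 0.87 at 2, 6 and 20 hours, Kng2 by 0.63, 0.62 and 0.45, and Hp by 0.48, 0.54 and 0.61. Cfi differed by 0.50, 0.38 and 0.22, C1qb by 0.32, 0.13 and 0.07, and A2m by -0.31, -0.14 and -0.07. C4bpa, a complement regulator, differed by 0.24 at 2 hours against 0.79 and 0.71 later (contrast -0.51 ± 0.15, adjusted p = 0.849 by limma).

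**Figure D5:**
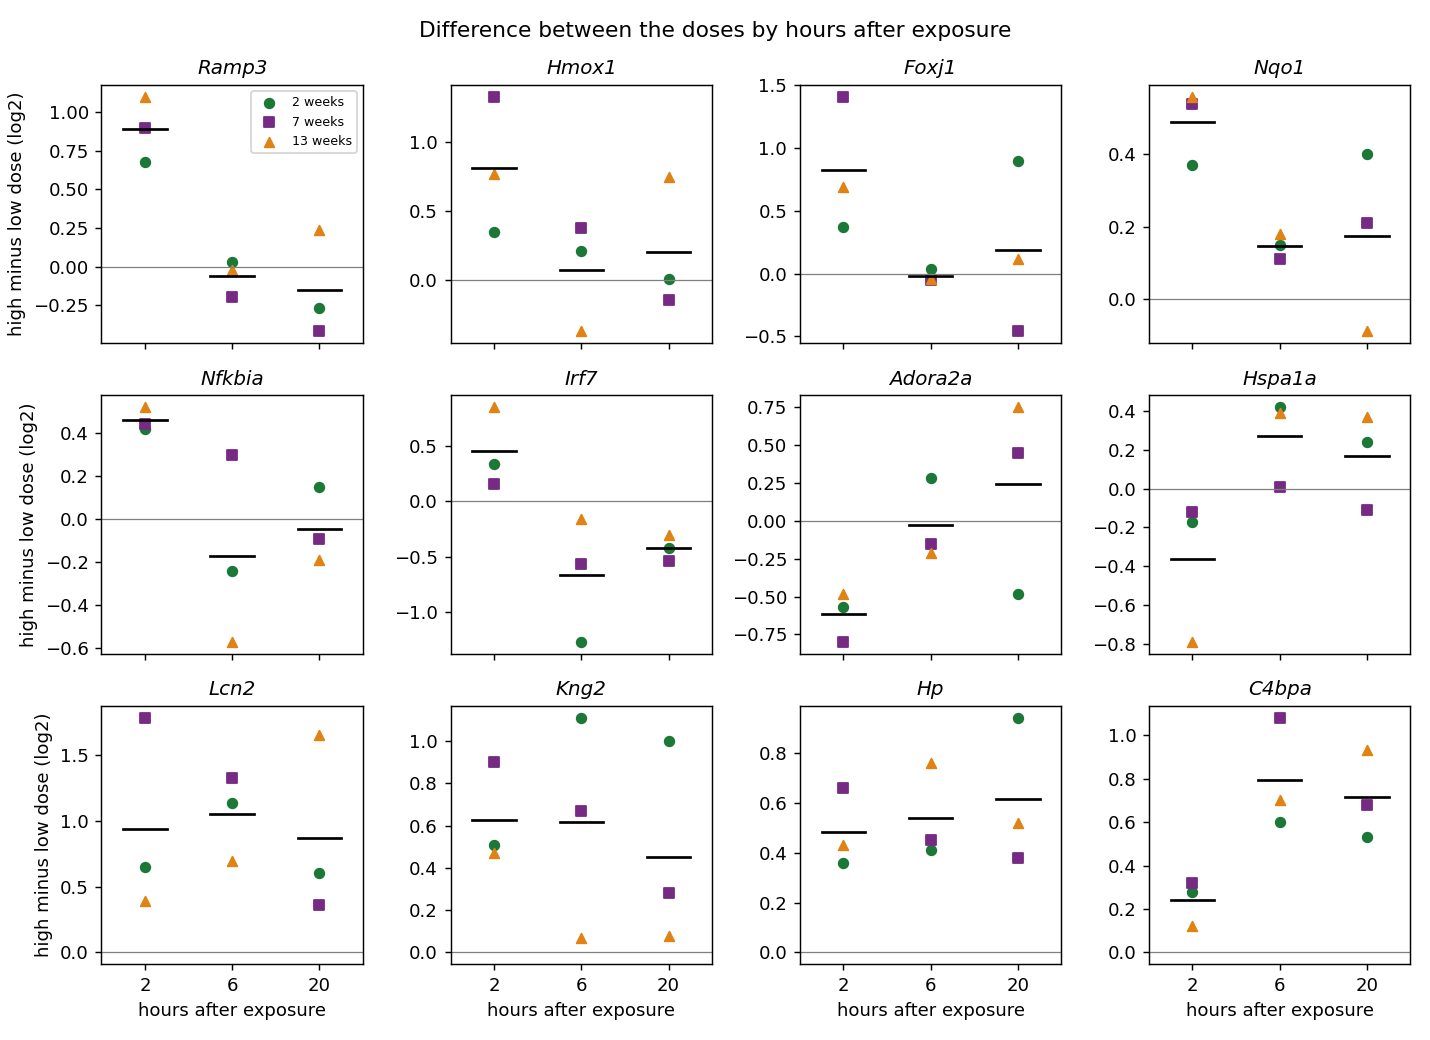
Each panel shows the log2 difference between the doses on the y axis against the hours after exposure (2, 6 or 20) on the x axis, with a point for each of 2, 7 and 13 weeks and a bar at their mean. Ramp3 has a mean of 0.89 at 2 hours and of -0.06 and -0.15 later, whereas Lcn2 has 0.94, 1.05 and 0.87. Both are leading genes, picked for their differences at 2 hours.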

How the data were processed

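The authors deposited 1 table of log2 ratios, smoke (Cy5) over fresh air (Cy3), of which the 6 samples at 2 hours enter the comparison and all 18 the contrast over hours. Per the labels' protocols, RNA was amplified linearly and each labelled sample was split over 2 PIQOR arrays. No dye swap is named, so a constant dye effect lies in each ratio and cancels in the difference. No source used here names the scanner, the background correction or the normalization. Smoke over air as the direction is taken from the channel labels. The log2 scale was checked on the 257 values under -1, of which 100% give a ratio of 2 decimals on that base and 10.1% on the natural one. Column medians at 2 hours were 0.00 to 0.01, and 14.8 to 19.4% of the cells were empty. Intensities were not used, and precision is limited by how many arrays there are.

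Repeated rows were merged, and the probes of a gene were averaged (133 of 4616 genes have several). Fits used limma 3.58.1 in R 4.3.3 (lmFit and eBayes, two-sided, Benjamini-Hochberg over all genes, threshold 0.05), tested on simulated data. The difference within an air pool is the pairing, taken from the control source names, and it was kept in every fit but 1. Lists are described by counts and medians, without a test. The members, 24 lists and rules were chosen with earlier results of these data known. Named were the 15 higher and 15 lower genes with the largest smallest-pair difference among those of 1 sign, 2 genes per list by size, a set of smoke-response genes, and the 5 genes with the widest opposite pairs. The 32 further genes in the tables, among them Odf1, Csrp3, Cfi, Sod2 and Ctss, were chosen after their values were seen. Gsta2, Gstm5, Adh1c, Fcgr2a, Tp63 and Scd2 joined their lists through synonyms.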

Additional observations from a re-analysis of the deposited data

Results flagged for a closer look

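Among the 131 genes named or tabulated, 9 had all 3 differences between the doses at 2 hours opposite in sign to all 3 at 6 or at 20 hours. Over all genes with values this held for 135 of 3638 (3.71%), 87 at 6 hours and 57 at 20 hours. The pattern needs 1 sign in all 3 pairs at 2 hours, which 944 of 3645 genes (25.9%) had. The leading genes among the 131 were picked for that trait. The share of 3.71% is therefore no like background for the 9, and no excess is read from it. The difference between 2 hours and the single opposite interval was not tested. In the limma contrast against the mean of 6 and 20 hours none of the 9 passed (adjusted p from 0.453 to 0.983). Irf7 stood higher at the high dose at 2 hours by 0.34, 0.16 and 0.85 after 2, 7 and 13 weeks, and lower on average at 6 hours (-0.67) and at 20 hours (-0.42), the only one of the 9 opposite at both. Irf7 had a contrast of 0.99 ± 0.21 (adjusted p = 0.453 by limma). Psmb8, an immunoproteasome subunit, differed by 0.17 at 2 hours and -0.22 at 20 hours. The heart peptide Nppa differed by 0.56 at 2 hours and -0.29 at 6 hours. The lipoprotein Apoe differed by 0.29 at 2 hours and -0.27 at 6 hours, and the cytochrome P450 Cyp1b1 by 0.17 and -0.12. The transporter Slco1a5 differed by 0.59 at 2 hours and -0.20 at 20 hours. In the other direction the chaperone Hspa1a differed by -0.36 at 2 hours and 0.27 at 6 hours. The platelet gene Gp9 differed by -0.30 at 2 hours and 0.21 at 20 hours, and the sterol regulator Srebf1 by -0.21 and 0.25.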

How the results depend on the processing

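The count of genes past limma between the doses was 0 and stayed 0 in most alternatives, among them no replicate block, that is 3 high-dose against 3 low-dose ratios as separate groups (0 genes, 100 at an unadjusted p under 0.05). Leaving out each week in turn gave 0 to 3 genes, the 3 without 13 weeks being Odf1, Hspb2 and Bnip3. The spread of all 9 differences gave 1, Ramp3. For the contrast over hours the count was 0, again 0 to 3 without single weeks, and 1 (Ramp3) with weeks as a covariate. Of the values of single genes 1157 kept direction and side, 18 reversed and 4 became called. Several alternatives, among them no replicate block and the spread of all 9 differences, change the spread and not the mean. Much of the 1157 could therefore not have reversed, and the count does not measure stability. Under quantile normalization Nqo1 turned to -0.0504, Cyp1a1 to -0.0068, Aldh3a1 to 0.0368 and Col1a1 to 0.15. The other reversals came from leaving out a week, and their cause was not tested. The ranges were -0.23 to 0.215 for Aldh3a1, -0.2075 to 0.0275 for Cxcr2, -0.505 to 0.64 for Abcc5, -0.005 to 0.41 for Actc1, -0.14 to 0.095 for Il1b, -0.22 to 0.295 for S100a8 and -0.355 to 0.14 for Gzma. They were -0.105 to 0.10 for Fos, -0.03 to 0.39 for Dbp, -0.425 to 0.705 for Scgn, -0.055 to 0.545 for C3, -0.63 to 0.335 for Bmal1 and -0.76 to 0.215 for Hgf. Cxcr2 also stood at 0.015 without 13 weeks. Of the list medians 131 shifted by no more than the SD of the list's own 3 weekly medians, and 13 counted as moved. A list whose weeks differ is thus given a wide allowance, so the 131 do not measure stability. The AhR median went from 0.17 to 0.0368 under quantile normalization. Without single weeks the medians of the lists that moved were 0.215 (AhR), 0.0417 and 0.305 (chemokines), -0.045, -0.03 and 0.095 (interferon), 0.21 and 0.19 (glucocorticoid), -0.05 and -0.035 (matrix), 0.12 (striated muscle) and 0.02 (clock).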
